A study of Caenorhabditis elegans with 6 samples.

Results

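Of the 12798 genes measured, 1150 lay above every control in both succinate dehydrogenase (SDH) mutants of *Caenorhabditis elegans* and 1268 lay below every control in both. The 2 mutant libraries, *gk165* (L2) and R244H (L4), were set against the 4 control libraries, WT (L2), WT (L3), WT (L4) and WTR (L4). A gene was placed above when the lower of its mutant values exceeded its highest control value, and below in the reverse case. The distance between those libraries is called the gap here and is given on the log2(RPKM + 1) scale, where RPKM is the number of reads per kilobase of exon, scaled to library size. The 1150 genes are 8.99% of all genes and the 1268 genes are 9.91%, and these percentages are the background for every count below. If the 6 libraries were exchangeable, a gene would fall above every control in 1 of 15 arrangements (0.0667), and below in as many. The libraries differ in stage and genotype, and the shares were not tested against that value. The placement itself chose the genes, so it is described and not tested.

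Each library was 1 pool of whole worms grown at 20 °C on OP50 bacteria, with polyA-tailed RNA sequenced. WT is the N2 strain, collected as L2, L3 and L4 larvae. *gk165* (L2) worms carried the deletion *sdhb-1(gk165)*, which removes all or part of the first exons of the gene and stops development at L2. The deletion also reaches into the neighbouring gene *cup-15*, taking its first exon and part of its second. R244H (L4) worms carried the same deletion, labelled *sdhb-1(gk165)/mIn1*, and a single-copy *sdhb-1* transgene on X that encodes the R244H change, histidine for arginine, under the gene's own promoter. WTR (L4) worms were homozygous for *gk165* and carried the wild-type transgene in the same way, so the deletion is shared by both mutants and by 1 control. Both transgenes were made in an *unc-119(ed3)* background that the strain list marks as uncertain after crossing, and the balancer *mIn1* carries *mIs14* (*myo-2::gfp; pes-10::gfp*) and *dpy-10(e128)*. The strain list of the study also gives the *gk165* deletion strain as balanced over *mIn1*. Balanced worms hold a wild-type *sdhb-1* copy on *mIn1*, and the sources used here do not give the share of balanced worms in either mutant pool. Every condition had 1 library, so genotype and larval stage cannot be told apart in the mutant group, and the controls differ in stage (WT at L2, L3 and L4) and in genotype (WT and WTR at L4). The spread in any test holds both.

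SDH is complex II of the respiratory chain and an enzyme of the tricarboxylic acid (TCA) cycle. It oxidizes succinate to fumarate and passes the electrons through the iron-sulfur clusters of SDHB to ubiquinone. Fatty acids are activated to acyl-CoA and shortened by beta-oxidation in mitochondria and peroxisomes, which releases acetyl-CoA. The glyoxylate shunt, which worms have and mammals lack, bypasses the decarboxylating steps of the TCA cycle and turns acetyl-CoA into precursors of sugar.

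The libraries held between 188742 and 867446 reads, and between 7.87% and 50.3% of the listed exons had no read, most in *gk165* (L2). The targeted gene *sdhb-1* had 5 reads in *gk165*, 68 in R244H and between 32 and 165 in the controls. R244H lay within the control range, so *sdhb-1* was in neither set. *unc-119* had between 1 and 12 reads per library and *dpy-10* between 1 and 99, and neither gene was in a set. Among the tissue markers, 1 neuronal gene (*snb-1*) was above, 1 hypodermal gene (*lin-26*) and 1 germline gene (*mex-3*) were below, and no marker of intestine, body wall muscle, pharynx or yolk was in either set. The 4 intestinal markers summed to 209 RPKM in *gk165* and 1448 in R244H, compared with 638 to 1485 in the controls, and *elt-2* had no read in *gk165*. Summed markers of body wall muscle, pharynx and hypodermis were also below all controls in *gk165*, at 973, 60.8 and 367 RPKM. Their lowest controls were at 2254, 118 and 477 RPKM, and R244H was within the control range for each. The neuronal sum in *gk165*, 795 RPKM, was above the highest control, 756 RPKM. The 6 germline markers summed to 71.0 RPKM in *gk165*, to 144 in R244H and to 64.1, 132, 842 and 920 RPKM in WT (L2), WT (L3), WT (L4) and WTR. In bulk RNA, fewer cells of a type and less RNA per cell cannot be told apart.

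The genes placed above were low in the controls, with a median of 13.4 RPKM there and 44.5 RPKM in the mutants. Their gap had a median of 0.50 and reached 4.71, and in 327 of them it was under 0.25. Of the 1150 genes, 797 (69.3%) were higher in *gk165* than in R244H. The genes placed below were at a median of 32.5 RPKM in the controls and 12.8 RPKM in the mutants, with a median gap of 0.40 and a maximum of 3.47. Of these 1268 genes, 357 (28.2%) were higher in *gk165* than in R244H, compared with 40.5% of all genes. Thus in most members of both sets *gk165* lay farther from the controls than R244H. At the border, *wdr-5.2* was just inside the upper set with a gap of 0.0001 and *mrps-30* just outside with -0.0007, while *bag-1* was inside the lower set with 0.0002 and *ZK550.4* outside with -0.0002.

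A gap of 2-fold or more was found above the controls for 306 genes (2.39%) and below them for 188 (1.47%). The lower count was 95 with a pseudocount of 5 RPKM, 112 with centred libraries and 363 with the highest exon only. Leaving out single libraries moved it to 450 without WT (L2), 311 without WT (L3), 550 without *gk165* and 1487 without R244H, and moved the upper count to 497 without WT (L3), 500 without *gk165* and 1253 without R244H. Counting error was added as exact binomial (Clopper-Pearson) intervals of the read ratio of each mutant to each control, at the 95% level, which cover counting error only. They use the reads of the libraries that placed the genes, so passing them describes read depth and is no second test of the placement. All 8 intervals excluded no change for 201 of the genes above (1.57%) and 127 of the genes below (0.992%). Over all genes the mutants lay 0.27 lower on the log2 scale, as a median. When each library was centred on its median gene, 1625 genes were above and 1057 below, so the share of upper genes among those placed moved from 47.6% to 60.6%.

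The share of genes placed in a set depended on their level. Below a mean of 10 RPKM over the 6 libraries, 7.55% of genes were above and 3.71% below, and from 10 to 30 RPKM the shares were 7.64% and 9.71%. At 30 to 100 RPKM 313 genes were above and 361 below of 2953, and at 100 RPKM or more the shares were 15.1% and 16.7%. The highest genes were thus placed more often in both directions.

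A limma fit with an intensity trend compared the 2 mutants with the 4 controls for every gene. The mutants were higher for 1 gene (0.00781%) and lower for 0 genes at a Benjamini-Hochberg adjusted p under 0.05 over 12798 genes. At an unadjusted p under 0.05 limma gave 700 higher genes (5.47%) and 619 lower genes (4.84%). For any single value, 2 libraries against 4 allow 15 arrangements. The exact permutation test cannot give a one-sided p below 0.0667, or below 0.1333 when that p is doubled for both sides.

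The gene called by limma was *acs-2*, an acyl-CoA synthetase that activates fatty acids for mitochondrial beta-oxidation and is known for its induction by fasting through the receptor NHR-49. *acs-2* (WBGene00009221, V:15567394-15569889, WBcel235) was at 18.9, 25.9, 61.6 and 78.3 RPKM in WT (L2), WT (L3), WT (L4) and WTR, compared with 7464 RPKM in *gk165* and 2074 RPKM in R244H. These levels rest on 9, 28, 86 and 68 reads in the controls and on 4042 and 1455 in the mutants. Both mutants were far above all controls, and the controls themselves differed with stage. The log2 difference of *acs-2* was 6.61 (SE 0.67, limma adjusted p = 0.0207 over all genes). The smallest ratio between a mutant and a control, that of R244H to WTR, was 28.53 in reads per library size, with an interval of 22.4 to 36.9. Without WT (L2), WT (L3), *gk165* or R244H, the limma adjusted p was 0.09, 0.14, 0.569 and 0.0851, and without WT (L4) or WTR it was 0.00267 and 0.00364. With larval stage as a term it was 0.127, and over all alternatives the difference lay between 5.68 and 7.53.

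Next to *acs-2*, the largest gaps above the controls with at least 20 reads in each mutant included several genes of lipid and xenobiotic metabolism. *icl-1* encodes the bifunctional isocitrate lyase and malate synthase of the glyoxylate shunt. It was at 164, 197, 356 and 264 RPKM in WT (L2), WT (L3), WT (L4) and WTR, against 1675 in *gk165* and 1933 in R244H. *icl-1* was thus the most strongly expressed of these genes in the controls, and both mutants reached a similar level. *far-3*, of the family of secreted fatty acid and retinol binding proteins, had 1.5, 4, 3 and 1.5 reads in WT (L2), WT (L3), WT (L4) and WTR, compared with 45 in *gk165* and 28 in R244H. *far-5* overlaps its exons in a later Ensembl annotation. Recovered read numbers need not be whole. The cytochrome P450 gene *cyp-32B1* had 1 to 5 reads in each control, 46.5 in *gk165* and 23 in R244H. *cyp-34A9*, of the same enzyme class, had 2 to 7 reads in each control and 22.5 and 26 in the mutants. *paf-2*, a homolog of intracellular platelet-activating factor acetylhydrolase, was at 7.88 RPKM in WT (L2), 8.59 in WTR, 9.79 in WT (L4) and 12.31 in WT (L3), and at 71.7 RPKM in *gk165* and 68.7 RPKM in R244H. *cka-2* overlaps *paf-2*, and whether strand was used in counting is not given in the sources used here.

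For the other members of this group no function is given here. *Y43C5A.3* had 1 read in WT (L3), 0 reads in the other 3 controls, 28 in *gk165* and 22 in R244H. *F21C10.10* had 1, 5, 8.5 and 10 reads in WT (L2), WT (L3), WT (L4) and WTR, compared with 211 and 83 in the mutants. *F52H3.5* was at 52.8 to 119.1 RPKM in the controls, 1061 in *gk165* and 534 in R244H. *F21C10.9* overlaps *F21C10.10*, and *mtcu-2* overlaps *F52H3.5*. *C06B3.6*, *F18E3.12* and *F18E3.13* completed the 12 genes, and the study named *C06B3.6* and *F18E3.12* from these libraries. Limma adjusted p-values of the 11 genes other than *acs-2* lay between 0.079 and 0.182. By gap alone, *Y9C9A.16* came second, named here after its values were seen, with 0 reads in every control, 14 in *gk165* and 5 in R244H.

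**Figure D1:**
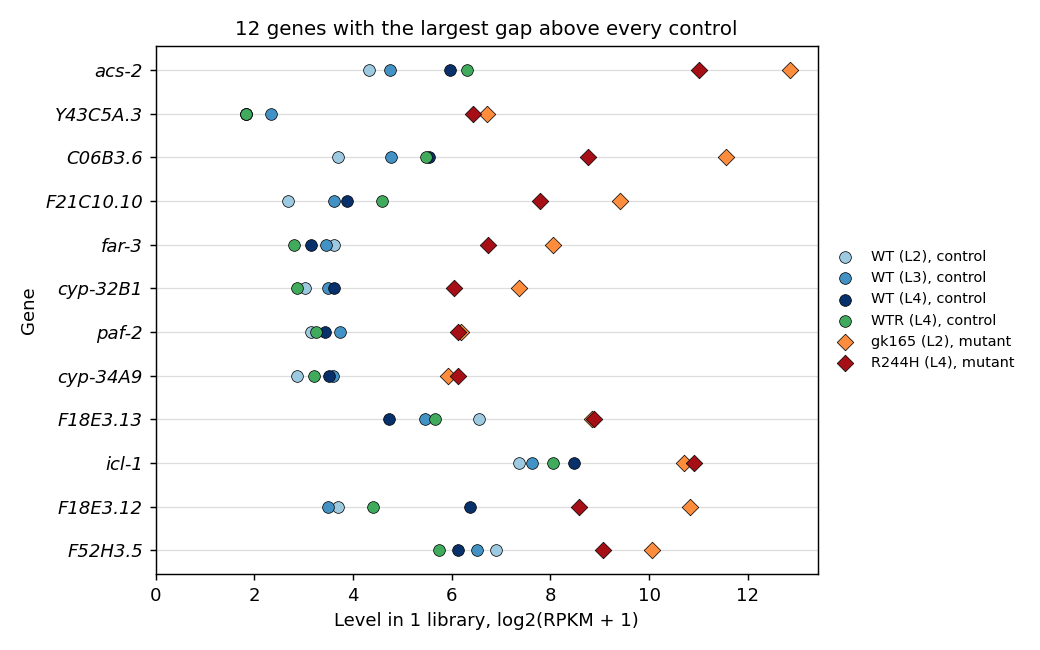
Level of the 12 genes with the largest gap above every control, in log2(RPKM + 1), for each of the 6 libraries (circles, controls; diamonds, mutants; 1 library per point, no error bar). In each row both diamonds lie to the right of all circles, with the widest space for *acs-2*, a gap of 4.71.

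Fatty acid activation and beta-oxidation was the metabolic list with the most members placed above. This list, like the others, was chosen with earlier results of these data known. Of its 42 measured genes, 16 (38.1%) were above and 2 (4.76%) below, compared with 8.99% and 9.91% of all genes. Limma gave 13 higher and 2 lower genes of the 42 at an unadjusted p under 0.05, compared with 5.47% and 4.84% of all genes. After adjustment it gave *acs-2* alone. All 8 counting intervals excluded no change for 9 of the 16, beside 201 of all 1150 genes placed above. The median difference of the 42 genes was 0.48, compared with -0.27 over all genes. With centred libraries 19 members were above, beside 12.7% of all genes, with the highest exon only 15 beside 8.84%, and with the mean of log2 values over exons 11 beside 6.89%. Without *gk165*, 27 members were above and 3 below, beside 19.9% and 17.9% of all genes. Without R244H, 17 were above and 7 below, beside 23.8% and 27.6%. The intestine is the main site of fat storage in the worm. Its summed markers were below all controls in *gk165*, like those of body wall muscle, pharynx and hypodermis, and within the control range in R244H. The part of tissue content in these counts was not tested.

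Among the enzymes that activate and import fatty acids, 7 acyl-CoA synthetases were above (*acs-2*, *acs-5*, *acs-7*, *acs-11*, *acs-12*, *acs-17* and *acs-22*), of 20 measured in the family. *acs-7* was at 161 RPKM in *gk165* and 65.8 in R244H, compared with 4.52, 37.6, 10.1 and 6.22 RPKM in WT (L2), WT (L3), WT (L4) and WTR. *acs-5* was at 89.4 RPKM in *gk165* and 118 in R244H, and at 32.8 to 57.5 RPKM in the controls. The carnitine palmitoyltransferase genes *cpt-4* and *cpt-5*, whose products carry acyl groups into mitochondria, were above by gaps of 0.29 and 0.70, and not all of their counting intervals excluded no change. *acs-4* was the 1 synthetase below, at 7.78 RPKM in *gk165* and 25.6 RPKM in R244H against 26.3 to 121 RPKM in the controls.

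The 4 steps of peroxisomal beta-oxidation that shorten the side chains of ascaroside pheromones were each represented above. Acyl-CoA oxidase *acox-1.1* was at 81.3 RPKM in *gk165* and 62.0 in R244H, compared with 21.2 to 30.97 RPKM in the controls. The enoyl-CoA hydratase *maoc-1* was at 178 RPKM in *gk165* and 100.5 in R244H, compared with 10.2, 36.4, 23.1 and 16.52 RPKM in WT (L2), WT (L3), WT (L4) and WTR. The dehydrogenase *dhs-28* was at 271 and 259 RPKM in the mutants, and its highest control was WT (L3) with 144. The thiolase *daf-22* was at 154 RPKM in *gk165* and 229 in R244H, and its highest control was again WT (L3), with 81.7. For these 4 genes all 8 counting intervals excluded no change, and their limma adjusted p-values were 0.369, 0.165, 0.256 and 0.263. *gei-15* overlaps *dhs-28*, and *E04F6.6* overlaps *maoc-1*. *lonp-2*, a peroxisomal Lon protease in mammals, was also above, with 43 reads in *gk165* and 38 in R244H against 7 to 18.5 in the controls.

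Peroxisome assembly genes, the *prx* family of peroxins, were above for 6 of 11 (54.5%) and below for 0. Their levels were low, with a median of 12.9 RPKM in the controls, and all 8 intervals excluded no change for 1 of the 6. *prx-2* was the 1 member with at least 20 reads in each mutant, with 91.7 and 96.0 RPKM in the mutants and 46.3 to 74.9 RPKM in the controls, and *prx-11*, which passed the counting criterion, had 20 and 15 reads in the mutants and 2 to 7 in the controls.

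Other beta-oxidation genes were placed above with gaps from 0.16 to 1.36. The mitochondrial thiolase gene *acaa-2* was at 292 RPKM in *gk165* and 373 in R244H, compared with 139 to 194 RPKM in the controls. The acyl-CoA dehydrogenase genes *acdh-9* and *acdh-10* lay above by 0.16 and 0.21. *ech-8*, a predicted enoyl-CoA hydratase, had the largest of these gaps, with 17 reads in *gk165* and 25 in R244H, and 2 to 5 in each control. *linc-119* overlaps *ech-8*.

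Desaturases of the polyunsaturated pathway were placed above together. *fat-1*, the omega-3 desaturase, was at 118, 235, 161 and 193 RPKM in WT (L2), WT (L3), WT (L4) and WTR, compared with 693 in *gk165* and 614 in R244H. *fat-2*, *fat-3* and *fat-4*, the delta-12, delta-6 and delta-5 desaturases, were above by gaps of 0.72, 0.78 and 1.05. All 8 intervals excluded no change for these 4 genes. *fat-7*, a stearoyl-CoA desaturase that makes oleic acid, went the other way, with 1 read in *gk165* and 0 in R244H, against 5, 12, 41 and 15 in WT (L2), WT (L3), WT (L4) and WTR. Of the 22 genes of fatty acid synthesis and desaturation, 5 (22.7%) were above and 2 (9.09%) below, with *sbp-1* and *elo-9* as the other members. The related genes *fat-5* and *fat-6* were in neither set.

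**Figure D2:**
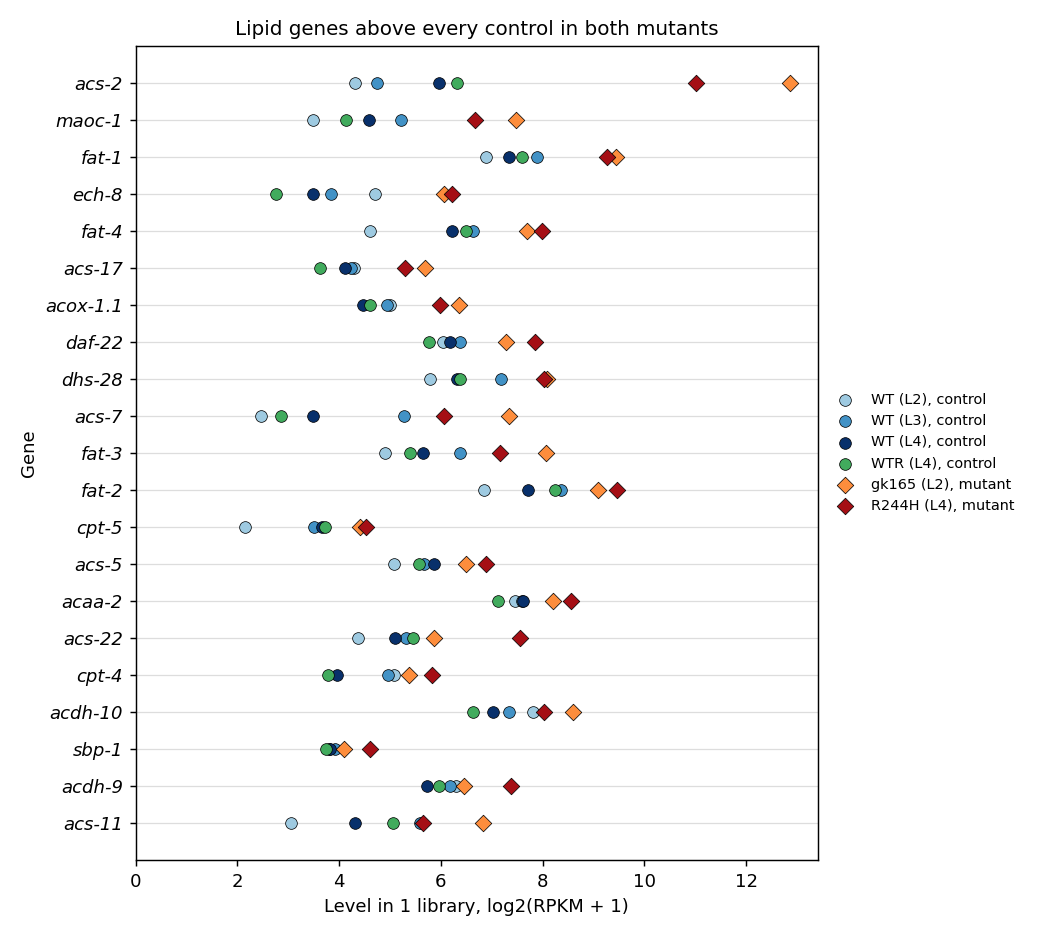
Level in log2(RPKM + 1) of the 16 genes of fatty acid activation and beta-oxidation and the 5 of fatty acid synthesis and desaturation that lay above every control, 1 point per library (circles, controls; diamonds, mutants). The rows run from the largest gap, 4.71 for *acs-2*, to the smallest, 0.05 for *acs-11*, where R244H nearly meets WT (L3).

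In the glyoxylate shunt and gluconeogenesis 3 of 6 genes were above and 0 below. Beside *icl-1*, these were *pck-2*, a phosphoenolpyruvate carboxykinase, with 491 RPKM in *gk165* and 890 in R244H against 138 to 324 RPKM in the controls, and *pyc-1*, pyruvate carboxylase, whose gap was 0.18. Of 20 other TCA cycle enzymes, 3 were above and 2 below, beside 8.99% and 9.91% of all genes. The upper genes were *cts-1*, *aco-2* and *mdh-1*, citrate synthase, aconitase and a malate dehydrogenase, with gaps of 0.43, 0.58 and 0.35. The lower genes were *sucg-1* and *idhg-1*, a succinyl-CoA ligase subunit and an isocitrate dehydrogenase subunit, with gaps of 0.54 and 0.36. The remaining enzymes of this list were in neither set. Whether placement differed between steps that the glyoxylate shunt shares and steps that it bypasses was not tested. The study named *icl-1*, *pck-2*, *aco-2*, *cts-1*, *mdh-1* and *sucg-1* from these libraries, so their placement is not independent evidence of a direction. Of the SDH subunits, *sdhd-1* was below by a gap of 0.0023 and the other 4 were in neither set.

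Glycolysis held 3 of 19 genes above (15.8%) and 0 below. Aldolase *aldo-2* had the largest gap of them, 1.03, at 1641 RPKM in *gk165* and 1269 in R244H compared with 370 to 622 RPKM in the controls. *gpd-3* and *pyk-2*, glyceraldehyde-3-phosphate dehydrogenase and pyruvate kinase, were the others, and *ldh-1*, lactate dehydrogenase, was in neither set. The genes above in pyruvate entry and anaplerosis included *mpc-2*, a mitochondrial pyruvate carrier subunit, at 256 and 289 RPKM in the mutants and 78.9 to 139 RPKM in the controls. They also included *pdha-1*, *dlat-2*, *got-2.2*, the glutamine synthetase *gln-3* and the asparagine synthetase *asns-2*, and the list had 6 of 22 (27.3%) above and 2 (9.09%) below. *asns-1*, the other asparagine synthetase gene, was 1 of the 2 below, with 4 reads in *gk165* and 13.5 in R244H against 26 to 46 in the controls.

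The nuclear genes of the remaining respiratory chain were mostly in neither set. Complex I had 3 of 23 genes above, complexes III and IV with cytochrome c had 0 of 21, and the ATP synthase had 3 of 12, with 0 below in all 3 lists. None of the 6 upper genes passed the counting criterion. Among genes that deliver electrons to ubiquinone or make it, 5 of 16 (31.2%) were above and 1 (*B0513.5*) was below. Those above were *gpdh-2*, a glycerol-3-phosphate dehydrogenase, at 237 and 340 RPKM in the mutants and 63.6 to 156 RPKM in the controls, and the ubiquinone synthesis genes *clk-1*, *coq-1*, *coq-3* and *coq-4*. Of these, *gpdh-2* alone passed the counting criterion.

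Of the 12 genes listed on mitochondrial DNA, 7 (58.3%) were above and 0 below. *ctc-3* and *ctc-2*, subunits of cytochrome oxidase, were at 4356 and 3589 RPKM in *gk165* and at 5084 and 3289 RPKM in R244H. Their highest control was WT (L3), with 2920 and 2258 RPKM. *nduo-5*, a complex I subunit, had a gap of 0.86, and *nduo-6* and *atp-6* had gaps of 0.02 and 0.08. Mitochondrial transcripts are cut from long precursors and several overlap neighbouring annotated genes, and the libraries were polyA-selected.

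Iron and metal handling had 5 of 15 genes above (33.3%) and 0 below. *ftn-1*, ferritin, had 68 reads in *gk165* and 18 in R244H, compared with 1, 11, 3 and 4 in WT (L2), WT (L3), WT (L4) and WTR. The metallothionein *mtl-2* was at 784 RPKM in *gk165* and 471 in R244H, against 171 to 306 RPKM in the controls. *cdr-2* and *cdr-4*, of a cadmium-responsive family, were above by gaps of 1.59 and 1.32. *smf-2*, a divalent metal transporter, had 2 reads in each mutant and 0 in each control, too few to describe a size. In the other stress lists, 5 of 28 genes (17.9%) were above for superoxide and peroxide removal, 3 of 18 (16.7%) for the mitochondrial stress response and 1 of 17 (5.88%) for the hypoxia pathway. In the mitochondrial stress list, *atfs-1*, the transcription factor of that response, was above by 0.53, and its chaperone *hsp-60* was below by 0.16. Insulin pathway genes and targets had 5 of 20 above, none of which passed the counting criterion.

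Shares above differed between gene families of xenobiotic metabolism and extracellular proteins, and the families described were picked after their values were seen. The *gst* family of glutathione S-transferases had 4 of 28 above (14.3%) and 2 below. The *clec* family of C-type lectins had 8 of 75 above (10.7%) and 1 below, and the *col* family of collagens 5 of 120 above (4.17%) and 11 below. The *cyp* family of cytochrome P450 genes had 16 of 43 above (37.2%), the *ugt* family of glucuronosyltransferases 15 of 48 (31.2%) and the *ttr* family of transthyretin-related proteins 13 of 44 (29.5%), with 1, 2 and 1 below. All 8 intervals excluded no change for 2, 3 and 1 of the upper members. *ugt-62* had 40 reads in *gk165* and 143 in R244H, compared with 0, 15, 48.5 and 24.5 in WT (L2), WT (L3), WT (L4) and WTR. *ttr-15* was at 3913 RPKM in *gk165* and 886 in R244H, with 400 to 724 RPKM in the controls. With the highest exon only, 9 of the *cyp* genes were above and 2 below, beside 8.84% and 8.60% of all genes, and with reads pooled over exons 14 were above and 0 below, beside 9.49% and 10.3%.

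The *nhr* family of nuclear hormone receptors had 40 of 147 members above (27.2%) and 4 (2.72%) below. Most were low, with a median of 10.3 RPKM in the controls, and 4 of the 40 passed the counting criterion. *nhr-61* had 63.5 reads in *gk165* and 44.5 in R244H, compared with 4 to 14 in the controls. *nhr-10*, a receptor of the propionate and vitamin B12 response, had 24 and 48 reads in the mutants and 8.5 to 13.5 in the controls. *nhr-57*, a target of the hypoxia factor HIF-1, had 2 and 3 reads in the mutants and 0 to 3 in the controls. The *fbxa* family of F-box proteins had 26 of 95 above (27.4%) and 1 below, and 0 of the 26 passed the counting criterion or had 20 reads in each mutant. The *fbxa* placements therefore rest on a few reads per library.

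The *nlp* genes *nlp-28* and *nlp-29* and the gene *cnc-4*, which encode antimicrobial peptides of the epidermis, were named after their values were seen, and antimicrobial peptide genes were not counted as a list. *nlp-28* had 130.5 reads in *gk165* and 36 in R244H, compared with 3, 6, 12 and 14 in WT (L2), WT (L3), WT (L4) and WTR. *nlp-29*, a widely used reporter of fungal infection and wounding, was at 4332 RPKM in *gk165* and 512 in R244H, and at 138 to 409 RPKM in the controls. *cnc-4*, of the caenacin family, was at 841 and 474 RPKM in the mutants and at 55.0 to 144 RPKM in the controls. All 8 intervals excluded no change for *nlp-28* and *cnc-4* and not for *nlp-29*. The *nlp* family, which also holds neuropeptides, had 9 of 46 genes above (19.6%) and 0 below.

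**Figure D3:**
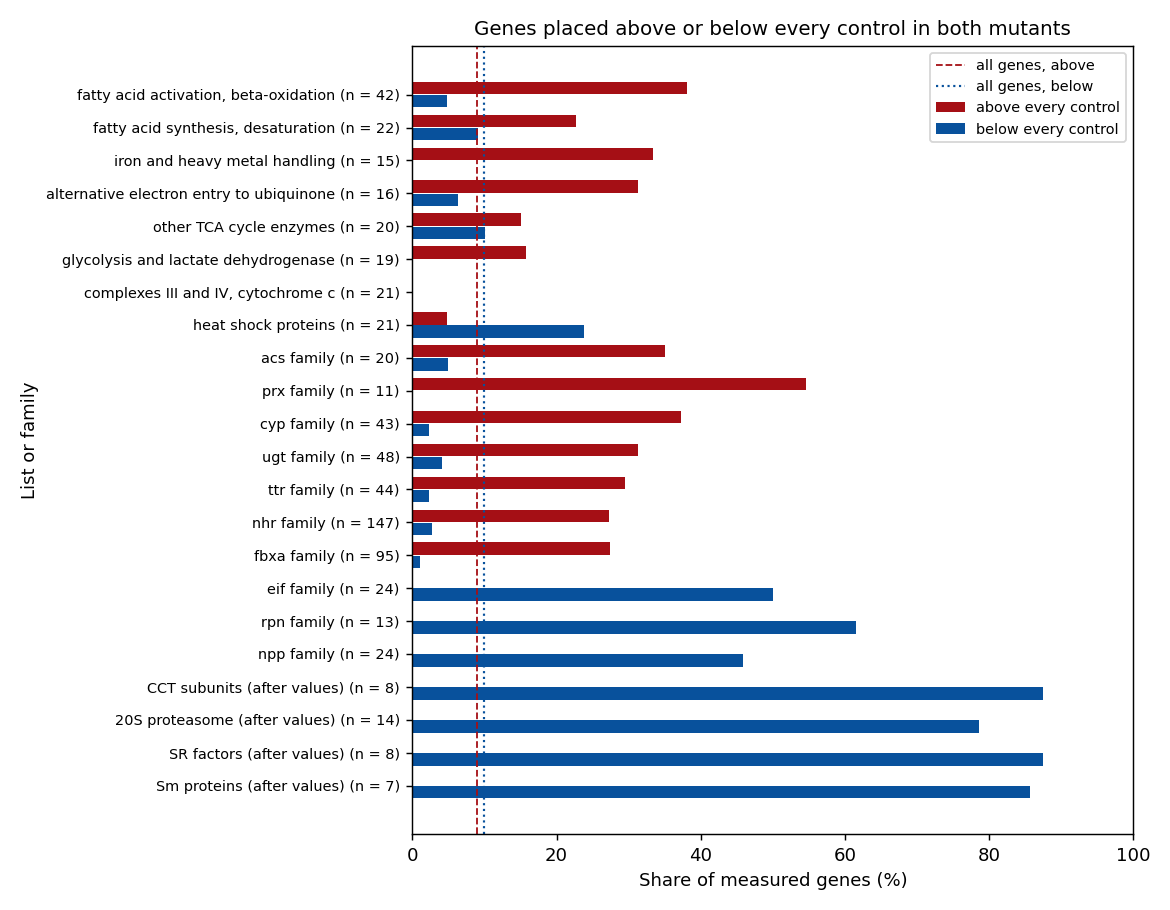
Share of the measured genes of 22 lists and families that lay above (red) or below (blue) every control in both mutants, in percent, with the number measured in brackets; broken lines mark the shares of all genes, 8.99% and 9.91%. The 4 lists marked "after values" were chosen once values had been seen, and their blue bars, 78.6% to 87.5%, reflect that choice. A list of nucleolar factors chosen in the same way (90.9% below) is not drawn. The other lists were chosen with earlier results of these data known, and the families drawn were picked after their values were seen.

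The 12 largest gaps below the controls, with at least 20 reads in each control, included 3 Sm proteins of the spliceosome. *snr-6*, an Sm protein of the spliceosome, was at 277, 243, 274 and 327 RPKM in WT (L2), WT (L3), WT (L4) and WTR, compared with 56.3 in *gk165* and 52.3 in R244H. The controls of all stages were close together and both mutants lay 2.09 below the lowest on the log2 scale. *fib-1*, fibrillarin, which methylates ribosomal RNA, was at 369 to 594 RPKM in the controls, 60.3 in *gk165* and 115.2 in R244H. *pcn-1*, the sliding clamp of DNA replication, was at 109 to 224 RPKM in the controls and at 23.4 and 31.6 RPKM in the mutants. *pie-1* overlaps *snr-6*. *snr-1* and *snr-2* are Sm proteins too, and the largest gaps also held *nol-1* and *K07C5.4*, homologs of the nucleolar proteins NOP2 and NOP56.

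*M28.5* and *Y48A6B.3*, homologs of proteins of box C/D and box H/ACA small nucleolar RNPs, were at 717 to 1120 and at 282 to 407 RPKM in the controls. In *gk165* they were at 46.8 and 74.2 RPKM, and in R244H at 250 and 83.6 RPKM. *rnp-5*, *C43E11.9* and *R12E2.15* completed the 12 genes. All 8 counting intervals excluded no change for each of the 12. Their limma differences lay between -3.04 for *M28.5* and -1.77 for *K07C5.4*, with adjusted p-values of 0.0906 to 0.143. The largest lower gap of any gene, 3.47, was that of *K01D12.9*, named after its values were seen because WT (L2) had under 20 reads. *K01D12.9* had 18, 70, 60 and 23 reads in WT (L2), WT (L3), WT (L4) and WTR, 1 in *gk165* and 0 in R244H, and its limma adjusted p was 0.0607.

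**Figure D4:**
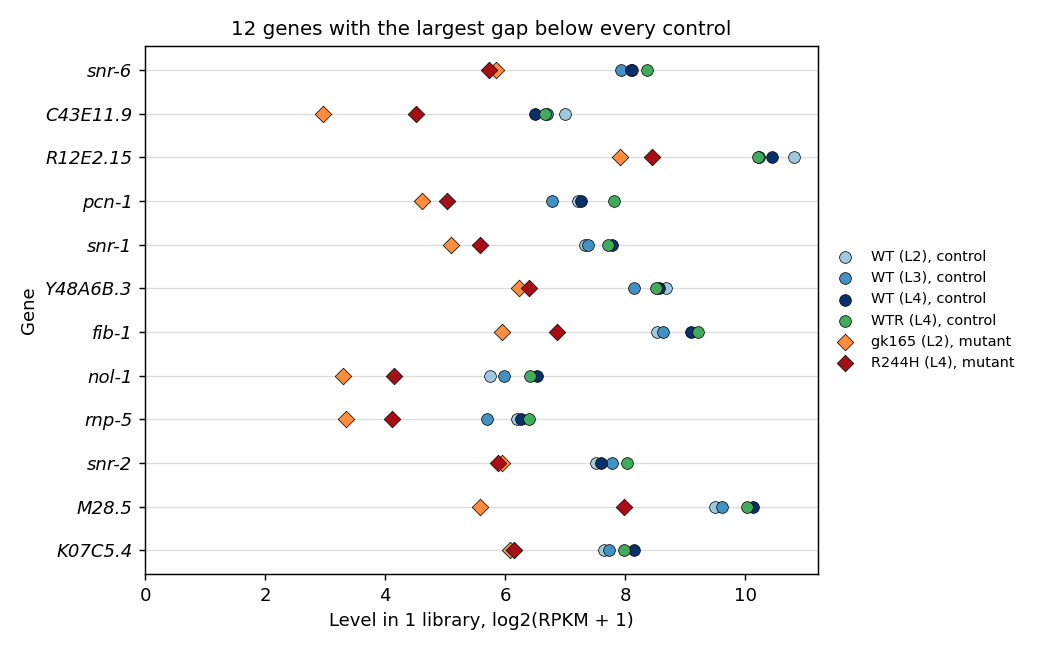
Level of the 12 genes with the largest gap below every control, in log2(RPKM + 1), for each of the 6 libraries (circles, controls; diamonds, mutants; 1 library per point, no error bar). Both diamonds lie to the left of all circles in each row; the largest gap, 2.09, is that of *snr-6*, and *gk165* is the lower mutant for *M28.5* and *C43E11.9*.

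The complexes to which these genes belong were then counted whole, as lists chosen after the values were seen, so their counts describe the lists and support nothing. Of 7 Sm proteins 6 were below, of 8 SR splicing factors 7, and of 11 nucleolar factors of small RNA binding and ribosome assembly 10, with 0 above in each. *rsp-4*, an SR protein, was at 188 to 314 RPKM in the controls and at 72.5 and 63.3 RPKM in the mutants. *nol-5*, a homolog of NOP58, was at 172 to 281 RPKM in the controls and at 62.4 and 51.4 RPKM in the mutants. The cytosolic chaperonin CCT, which folds actin and tubulin, had 7 of 8 subunits below. *cct-2* had 105, 208, 280 and 202 reads in the controls, in the order WT (L2), WT (L3), WT (L4) and WTR, and 35 and 58 in the mutants. The 20S core of the proteasome had 11 of 14 subunits below, among them *pbs-1*, at 296 to 349 RPKM in the controls and at 118 RPKM in *gk165* and 131 in R244H. These genes are highly expressed, and 16.7% of all genes at 100 RPKM or more were below.

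Families with a shared symbol covered translation and protein turnover. The *eif* family of translation initiation factors had 12 of 24 genes below and 0 above, and all 8 intervals excluded no change for 6. *eif-3.K* was at 113 to 164 RPKM in the controls, 32.2 in *gk165* and 48.8 in R244H. The *rpn* family of proteasome regulatory subunits had 8 of 13 below (61.5%), with 4 passing the counting criterion, and *rpn-3* was at 83.1 to 139 RPKM in the controls, 29.5 in *gk165* and 43.7 in R244H. The *npp* family of nuclear pore proteins had 11 of 24 below (45.8%), and 0 of the 11 passed that criterion, and with the highest exon only 7 were below, beside 8.60% of all genes. The ribosomal proteins themselves were different, with 8 of 47 *rpl* genes and 6 of 31 *rps* genes below, 0 above, and a median difference of 0.02 in both families. Of 21 heat shock proteins, 5 (23.8%) were below, including *hsp-1* and *hsp-110*, and *hsp-16.2* was above.

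The 6 germline markers summed to 842 and 920 RPKM in the 2 L4 controls and to 144 RPKM in R244H. Their sums were 71.0 RPKM in *gk165* and 64.1 and 132 RPKM in WT (L2) and WT (L3). The part of the germline in the lower values was not tested. The *msp* family of major sperm proteins had 0 of 32 genes in either set. Of the methionine cycle, *ahcy-1*, *sams-3*, *mtrr-1* and *mthf-1* were below, and *ahcy-1*, which hydrolyses S-adenosylhomocysteine, was at 1007 to 1597 RPKM in the controls, 606 in *gk165* and 670 in R244H. *cbs-1*, a cystathionine beta-synthase, was above, with 25.5 and 16 reads in the mutants and 1 to 11 in the controls.

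Each mutant was also described against controls of its own larval stage, in pairs that share no library. The pairs use the libraries of the placement, so they are no second test of it. Between *gk165* and WT (L2), the 42 genes of fatty acid activation and beta-oxidation had a median difference of 0.75, compared with 0.00 over all genes. Between R244H and WTR their median was 0.93, compared with -0.17 over all genes. Of the 42, 24 (57.1%) were higher in both pairs, compared with 21.8% of all genes. The 16 placed above every control are among the 24 by the rule itself. Against WT (L4) the median of R244H was 0.97, while against WT (L3) that of *gk165* was 0.01, compared with -0.19 over all genes. The list median in *gk165* was thus near 0 against L3 larvae.

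The lower complexes were chosen for their low values in both mutants, so medians below 0 against each control follow from that choice and only their sizes are given. The medians of the Sm proteins in *gk165* were -1.58 against L2 and -1.83 against L3 larvae, and those in R244H were -1.72 against WT (L4) and -1.79 against WTR. The chaperonin CCT had medians of -1.76 and -1.85 in *gk165* and of -0.95 and -0.78 in R244H, in the same order.

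**Figure D5:**
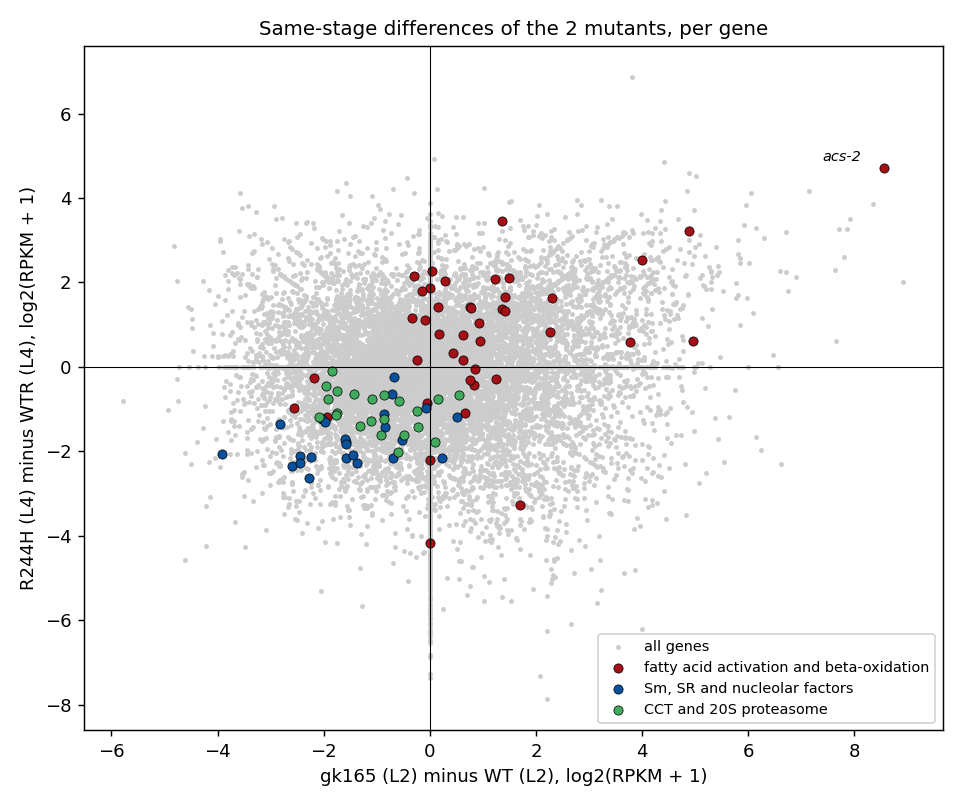
Difference of *gk165* (L2) from WT (L2) on the horizontal axis and of R244H (L4) from WTR (L4) on the vertical axis, both in log2(RPKM + 1), 1 point per gene (grey, all 12798 genes; red, fatty acid activation and beta-oxidation; blue, Sm, SR and nucleolar factors; green, CCT and 20S proteasome). In the upper right quadrant lie 24 of the 42 red points, with *acs-2* at 8.55 and 4.71, and in the lower left lie 24 of the 26 blue and 19 of the 22 green points, which were chosen for their low values. Of all genes, 21.8% lie in the upper right quadrant and 22.4% in the lower left.

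Among the nuclear chromosomes, genes placed above were most frequent on V (335 of 2451, 13.7%) and X (186 of 1709, 10.9%) and least frequent on I (111 of 2180, 5.09%). The reverse held for genes placed below, with 12.7% on I, 12.5% on III, 7.83% on V and 5.56% on X. Neighbouring genes in the table were both above in 211 of 12791 pairs and both below in 214. For 18.3% of the genes above, the next gene was also above, beside 8.99% of all genes. For the genes below the share was 16.9%, beside 9.91%. The part of overlapping neighbours in these shares was not tested. There were 10 runs of 4 or more neighbours above and 5 below. The longest run held 8 genes over 35.5 kb at V:7413437-7448884, *F18E3.11*, *F18E3.12*, *F18E3.13*, *srw-71*, *srw-78*, *ddo-2*, *F25E5.8* and *F25E5.5*. In it *ddo-2* had 4, 28, 40 and 40.5 reads in WT (L2), WT (L3), WT (L4) and WTR, against 143 in *gk165* and 121 in R244H. *F18E3.13* had 10 to 13 reads in the controls, 65 in *gk165* and 95 in R244H. *srw-78* had 0 reads in every control, 2 in *gk165* and 1 in R244H, so the length of the run depends on genes with few reads. Other runs held *Y58A7A.2* to *Y58A7A.5* on V, of which *Y58A7A.3* was at 234 and 58.2 RPKM in the mutants and at 6.19 to 13.3 RPKM in the controls, and *cyp-25A1*, *cyp-25A2* and *cyp-25A3* on III.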

How the data were processed

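Whole-worm polyA RNA was sequenced from 6 conditions, 1 library each. Per the labels and methods, the authors trimmed reads (Trim Galore 0.4.1, cutadapt 1.14), aligned them with TopHat2 2.1.0 to WBcel235, counted them on merged exons and normalized them with edgeR 3.26.8. They deposited log2 RPKM values for 53267 exons, which carry an offset. Their filter, the offset and the use of strand are not given in the sources used here. Linear RPKM was averaged over the exons of each gene and log2(RPKM + 1) taken, with a pseudocount of 1. Read numbers were recovered from the steps in the deposited values, taking 1 read as the step for which the offset was 0.25 reads in a library of mean size, so read numbers rest on that choice. Of the exons with reads, 51.4% to 62.1% had whole numbers and 96.3% to 98.4% fell on multiples of 0.5 reads, within 0.01 reads, so no count model was run. Recovered totals were 188742 (WT L2), 580259 (WT L3), 867446 (WT L4), 542503 (WTR), 279254 (*gk165*) and 405789 (R244H) reads, so low genes are least certain in WT (L2) and *gk165*.

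Limma 3.58.1 (R 4.3.3, trend) compared the mutants with the controls over all 12798 genes, with Benjamini-Hochberg adjustment. Because each condition is 1 library, p-values measure the spread between libraries of different genotype and stage. A limma fit and the placement rule, written out again, were run on simulated counts in which all controls had the same means. Read recovery, averaging over exons, counting intervals and list counts were not covered by that simulation. Named genes were the 12 largest gaps each way with at least 20 reads in each library of the higher group, placed members of the gene lists, alleles of the strains and genes the study names, and families with 10 or more members. The members and lists were chosen with earlier results of these data known. Of 416 listed symbols, 393 were in the table, 23 of them matched by gene ID through Ensembl release 115, which also gave overlapping genes. Alternatives were other pseudocounts, a filter on low values, other summaries over exons, centring, a stage term, a wider gap and leaving out each library. Added after seeing the data were read minimums, counting intervals and same-stage controls. Figures were drawn with matplotlib 3.10.9, and scipy 1.17.1, pandas 2.3.3 and numpy 2.4.6 ran under Python 3.11.15.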

Additional observations from a re-analysis of the deposited data

Results flagged for a closer look

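Over the 4 control libraries of 35 named genes, 2 values stood apart from the other 3 controls by Dixon's criterion at the 95% level, and chance marks about 1 in 20 groups. *Y43C5A.3* was at 2.35 log2(RPKM + 1) in WT (L3) and at 1.84 in the other controls, which reflects 1 read against 0 reads. *aco-2* was at 6.75 log2(RPKM + 1) in WT (L2), where the nearest control was at 7.72, and both mutants were above all 4 controls.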

How the results depend on the processing

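Leaving out each library in turn gave 1298 to 3052 genes above and 1428 to 3528 below, and 356 to 1253 and 239 to 1487 genes with a gap of 2-fold or more. The fewest above were without WT (L4) for all genes and WTR for the 2-fold gap, and the most without R244H. Without *gk165*, 2542 genes were above and 2294 below, and without WT (L2) 2385 were below. Limma then called 0 to 5 higher genes and 0 to 1 lower genes: without WT (L4) these were *acs-2*, *F21C10.10*, *icl-1*, *C06B3.6* and *F18E3.12*, and *K01D12.9* was lower. Genes below by 2-fold numbered 95 with a pseudocount of 5 RPKM, 363 with the highest exon only and 112 with centred libraries. A gap of 3-fold left 164 genes above and 48 below. Limma called 3 higher genes with centred libraries (*acs-2*, *F21C10.10* and *icl-1*), and 0 with the highest exon only, with reads pooled over exons or with larval stage as a term, and 1 lower gene (*K01D12.9*) with the mean of log2 values. Chosen after seeing the data, at least 20 reads in each library of the higher group left 347 genes above and 311 below, and the counting intervals left 201 and 127. With same-stage controls only, 2377 genes were above and 2497 below, since each mutant then had fewer controls to pass. By the rule itself, leaving out a library can only add genes to a set, so those counts could only rise. The cause of the other changes was not tested. Of 490 differences of 35 named genes under 14 alternatives, 472 kept their direction and side of the threshold. Only *acs-2* passed the threshold in the main fit, so for the other genes the same side means not called. Genes placed beyond every control cannot change direction when a library is left out, so this count does not measure robustness. With single libraries left out, the *sdhb-1* difference lay between -3.29 without R244H and 0.25 without *gk165*. That of *dpy-10* then lay between -0.20 without WT (L4) and 1.31 without WT (L3), and was -0.18 without WTR and -0.15 without R244H, and it reached 1.36 with reads pooled over exons. No paired analysis was possible because the replicate numbers were given in accession order and the labels pair no libraries. Depth limits low genes in WT (L2) and *gk165*, where 42.3% and 50.3% of exons had no read.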
